A study of Mus musculus with 3 samples.

Results

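The SR proteins, the hnRNPs and their partner splicing factors were examined as 48 genes chosen by symbol, all of which matched 1 protein-coding gene ID each among the 55536 gene IDs of the deposited tables. The samples were 3 libraries of 1 group. They held ribosome-depleted RNA of the chromatin fraction of bone marrow-derived macrophages of C57BL/6J mice. Before harvest they received 100 ng/ml Lipid A, the part of lipopolysaccharide that activates Toll-like receptor 4, for 12 hours, and a washout of 12 hours followed. They were taken at minute 0 of a second exposure to Lipid A at 100 ng/ml. All 3 libraries share this treatment and no untreated group was analysed here, so none of the values below is a response to Lipid A. Sex and age were not recorded in the labels.

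SR proteins carry an RNA-recognition motif and a tail rich in arginine and serine, and they bind exons and help the spliceosome choose them. The hnRNPs coat nascent RNA and often act the other way, by keeping splice sites from being used. Genes of both families are known for controlling their own output: the protein directs splicing of its own transcript towards a form with a retained intron or a premature stop codon. Retained-intron forms tend to stay in the nucleus, and forms with a premature stop are degraded in the cytoplasm by nonsense-mediated decay. Chromatin RNA holds transcripts that are still being made or have not yet been released.

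The libraries held 11958978, 17283529 and 19475027 expected counts in replicates 1, 2 and 3. Of 10 macrophage marker genes, all 10 reached 1 TPM in each library (TPM is a transcript abundance corrected for length and library size), and their summed level was 1238, 1567 and 1415 TPM. Markers of neurons and epithelium were summed to at most 2.56 TPM in any library. The 11 markers of fibroblasts and stroma were summed to 1.30 TPM in replicate 1, 2.57 TPM in replicate 2 and 596 TPM in replicate 3, so replicate 3 stood apart. In bulk RNA, fewer cells of a type and less RNA per cell cannot be told apart. The labels number the replicates as biological but give 1 donor entry for all of them, so the spread between these libraries may be partly technical.

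Transcripts of the splicing factors were abundant on chromatin. All 48 reached 1 TPM in each library, against 46.1% of the 22028 protein-coding genes. At a mean of 10 TPM or more there were 47 members (27.2% of protein-coding genes), and 26 reached 100 TPM (2.57% of protein-coding genes). The median member stood at 119.6 TPM, and library by library it was 125.9 (replicate 1), 114.5 (replicate 2) and 121.5 TPM (replicate 3). The median of all protein-coding genes was 0.913 TPM, and that of the 6002 at 10 TPM or more was 26.2 TPM. The members' summed level was 10369, 10147 and 10296 TPM, or 3.44%, 3.08% and 3.18% of all protein-coding TPM in replicates 1, 2 and 3. Of the 100 highest protein-coding genes, 10 were members.

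**Figure D1:**
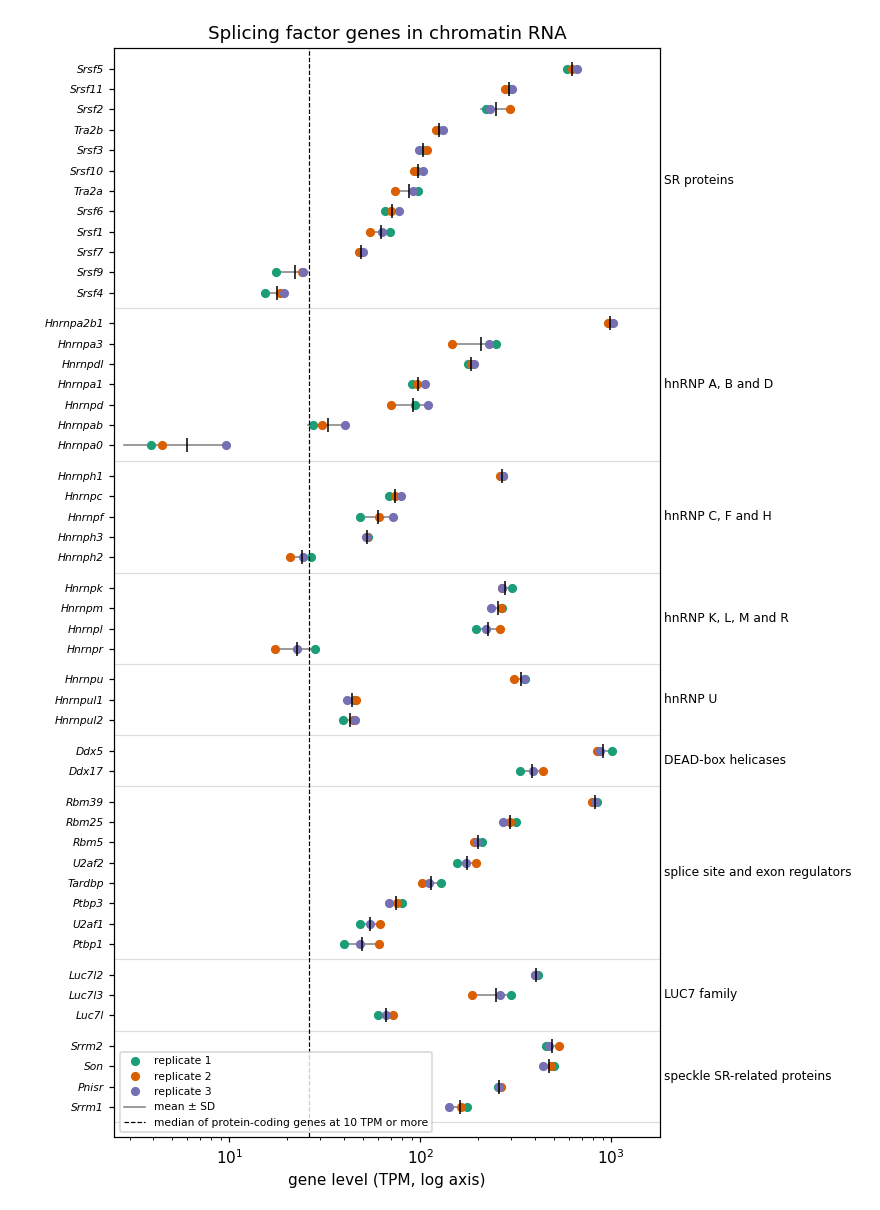
Level of each of the 48 splicing factor genes in TPM on a log axis, grouped by role, with a coloured point per library and a grey line for the mean ± SD (n = 3). All genes except Hnrnpa0, Hnrnph2, Hnrnpr, Srsf4 and Srsf9 have means right of the dashed line at 26.2 TPM, the median of the 6002 protein-coding genes at 10 TPM or more.

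Among the 12 SR proteins the median was 92.5 TPM, and 5 exceeded 100 TPM. Srsf5 was the highest, at 587, 626 and 664 TPM in replicates 1, 2 and 3 (626 ± 38.5 TPM, SD, n = 3). Srsf11, a protein of the family that binds U2AF, followed at 296, 278 and 301 TPM (chromosome 3, 158010473 to 158036639, minus strand, mm10). Srsf2, known as a component of nuclear speckles, stood at 220.3, 296 and 232 TPM. No value of Srsf5 came within those of the other SR proteins, whereas the ranges of Srsf11 and Srsf2 overlapped. Tra2b and Tra2a, which bind exonic enhancers rich in GAA, were at 125 ± 5.72 and 87.5 ± 12.2 TPM. Srsf3 and Srsf7, close relatives, were at 103.5 ± 5.34 and 48.8 ± 1.40 TPM. The lowest SR genes were Srsf9 at 21.9 ± 3.82 TPM and Srsf4 at 17.7 ± 2.15 TPM.

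In the hnRNP A, B and D class, with a median of 97.4 TPM over 7 genes, both the highest and the lowest members of the whole set were found. Hnrnpa2b1 was at 976, 961 and 1019.9 TPM (986 ± 30.6 TPM), number 10 among protein-coding genes (chromosome 6, 51460932 to 51469894, minus strand, mm10). Hnrnpa0 was at 3.89, 4.45 and 9.65 TPM, and no other member fell below 10 TPM. Between them lay Hnrnpa3 at 208 ± 54.2 TPM, Hnrnpdl at 184 ± 7.37 TPM, Hnrnpa1 at 97.4 ± 8.18 TPM and Hnrnpd, an AU-rich element binder, at 91.2 ± 19.9 TPM. Hnrnpa1 and Hnrnpa3 have processed copies elsewhere in the genome, so how reads were divided makes these levels less certain.

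The 5 genes of hnRNP C, F and H, of which F and H bind runs of guanine and C binds runs of uridine, had a median of 60.2 TPM. Hnrnph1 was well above the rest at 272, 262 and 272 TPM, followed by Hnrnpc at 73.9 ± 5.37 TPM and Hnrnpf at 60.2 ± 11.8 TPM. Hnrnph2, its close relative on the X chromosome, was the lowest at 26.6, 20.8 and 24.2 TPM. Of the hnRNP K, L, M and R genes, 3 were within a narrow band: Hnrnpk, which binds cytosine-rich RNA, at 279 ± 19.9 TPM, Hnrnpm at 256 ± 17.9 TPM and Hnrnpl, which binds CA repeats, at 226 ± 32.9 TPM. The range of Hnrnpm over the libraries overlapped those of the other 2, and Hnrnpr lay apart at 22.7 ± 5.32 TPM. Hnrnpu, a scaffold protein that binds chromatin and RNA, was at 337 ± 22.9 TPM, while its relatives Hnrnpul1 and Hnrnpul2 were at 44.0 ± 2.35 and 43.0 ± 3.39 TPM.

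Both DEAD-box RNA helicases were among the high genes. Ddx5 was at 1003, 841 and 878 TPM in replicates 1, 2 and 3, and Ddx17 at 332, 440.1 and 387 TPM, so their ranges did not overlap. Among the 8 splice site and exon regulators (median 144.8 TPM), Rbm39, an SR-related partner of U2AF, led at 839, 797 and 824 TPM. Rbm25 and Rbm5, regulators of alternative exons in apoptosis genes, were at 293 ± 22.2 and 199.9 ± 10.1 TPM. U2af2, which binds the polypyrimidine tract, was at 175 ± 20.4 TPM, and its partner U2af1, which reads the AG at the intron end, at 54.7 ± 6.39 TPM. Tardbp, encoding the UG-binding protein TDP-43, was at 114 ± 13.3 TPM. The pyrimidine tract binders Ptbp3 and Ptbp1 were at 74.5 ± 5.81 and 49.8 ± 10.6 TPM, and the ranges of Ptbp1, the lowest of the class, and U2af1 overlapped.

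The LUC7 proteins, which join the U1 particle at the 5′ splice site, ranged widely. Luc7l2 was at 411, 400.5 and 399 TPM, Luc7l3 at 297, 187 and 262 TPM and Luc7l at 59.9, 71.6 and 65.9 TPM. No range overlapped another. The speckle proteins had the highest class median after the helicases, 367 TPM. Srrm2 and Son, the scaffold proteins of nuclear speckles, were at 488 ± 41.9 and 474 ± 32.2 TPM, and Pnisr and Srrm1 at 259.7 ± 4.16 and 160.5 ± 17.4 TPM.

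Related genes differed in level, some by a like factor in each library and others not. In each of 12 pairs the gene with the higher mean TPM is named first, so the order comes from these same values. The first gene was above the second in every library in 11, the exception being Hnrnpul1 over Hnrnpul2 at 1.14, 1.03 and 0.911. The widest gap was that of Hnrnph1 over Hnrnph2, at 10.2, 12.6 and 11.2 times in replicates 1, 2 and 3. Luc7l2 exceeded Luc7l by 5.59 to 6.87 times and Srsf6 exceeded Srsf4 by 3.80 to 4.27 times, the second at 1.55 to 2.40 times in the read-based quantification, which the authors made from the reads and an index, not from the transcriptome alignment behind the first. U2af2 over U2af1 varied least, from 3.19 to 3.22 times, but was 1.84 to 1.94 times read-based. Ddx5 exceeded Ddx17 by 1.91 to 3.02 times and Srsf3 exceeded Srsf7 by 1.95 to 2.29 times. The other pairs, Srsf1 over Srsf9, Hnrnpa3 over Hnrnpa1, Hnrnpdl over Hnrnpd, Ptbp3 over Ptbp1 and Tra2b over Tra2a, ranged from 1.24 to 3.96 times. In the read-based values, Hnrnpdl over Hnrnpd narrowed to 1.11 to 1.27 times.

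For comparison, 24 of 32 core spliceosome genes were at 10 TPM or more, with a median of 19.0 TPM and 4 genes at 100 TPM or more. Sf3b1, a branch point binding subunit of the U2 particle, led at 232 ± 11.7 TPM, then Snrnp70 of the U1 particle at 195 ± 15.7 TPM, and Snrpf, a ring protein, was lowest at 0.99 ± 0.97 TPM. Other RNA-binding splicing regulators had a median of 40.8 TPM, with 22 of 37 at 10 TPM or more. They ran from Mbnl1 at 433 ± 54.3 TPM and Ewsr1 at 412 ± 25.9 TPM to Srrm4, a regulator of neuronal microexons, listed at 0. Nonsense-mediated decay factors had a median of 22.2 TPM, and 12 of 16 were at 10 TPM or more. The kinase gene Smg1 was at 174 ± 13.3 TPM, Smg5 at 50.6 ± 6.17 TPM and Smg8 at 3.77 ± 0.29 TPM. These lists were described and not tested against the members.

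Most members were at like TPM in the 3 libraries. In 42 of 48 the highest library was at most 1.5 times the lowest (76.3% of protein-coding genes at 10 TPM or more), and in Hnrnpa0 alone it was over 2 times. In edgeR's quasi-likelihood fit, 0 of 48 members had a quasi-dispersion above the trend at a Benjamini-Hochberg adjusted p under 0.05, and 0 of 14839 genes tested did (0%), so this count says nothing of the members' stability. Without adjustment, 1 member had a p under 0.05, against 747 genes (5.03%). It was Hnrnpa0, with an adjusted p = 0.886 by edgeR (0.0311 before adjustment). Its expected counts were 113, 151 and 404 in replicates 1, 2 and 3. Replicate 3, where Hnrnpa0 was highest, is also the library with 596 TPM of stromal markers against 1.30 and 2.57 TPM, and the part of this in the Hnrnpa0 value was not tested. Rbfox2, one of the other regulators, was likewise at 0.08, 0.01 and 3.75 TPM.

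After Hnrnpa0, the SD of log2(TPM + 1) was largest for Hnrnpa3 (0.41), Luc7l3 (0.34), Hnrnpr (0.33) and Hnrnpd (0.33). In each of these 4 genes replicate 2 was the lowest library, with Hnrnpa3 at 250.1, 147 and 228 TPM, Hnrnpr at 28.0, 17.4 and 22.7 TPM and Hnrnpd at 94.2, 70.0 and 109.5 TPM. The smallest SDs were those of Hnrnph3 at 53.3, 52.4 and 52.2 TPM, Pnisr at 256, 264 and 259 TPM, and Luc7l2. TMM-normalized CPM, which is not corrected for length, gave another order for some. Hnrnpr was at 107, 112 and 111 CPM in replicates 1, 2 and 3, so its low replicate 2 was in TPM alone, while Hnrnph3 was at 42.2, 31.5 and 34.5 CPM. In CPM, 39 of 48 members were higher in replicate 1 than in replicate 2 (47.3% of 11248 protein-coding genes), with a median log2 ratio of 0.20. Against replicate 3, 35 of 48 were higher in replicate 1 (43.3% of those genes), with a median log2 ratio of 0.14. The libraries were made from 1000, 250 and 500 ng of RNA in replicates 1, 2 and 3, and the part of this in the ratios was not tested. By TPM, 18 of 48 members were highest in replicate 3 (34.6% of protein-coding genes at 10 TPM or more), 19 in replicate 1 and 11 in replicate 2. No share over all genes was taken for replicates 1 and 2, so those counts cannot be set against other genes.

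A large part of the members' transcript TPM was assigned to annotated retained-intron isoforms. Of 48 genes, 38 have such an isoform in the annotation, and the median share over these was 53.7%, at 54.3%, 54.1% and 54.0% in replicates 1, 2 and 3. The share was 50% or more in 21 of 38, against 48.7% of the 4428 protein-coding genes at 10 TPM or more that have one, so the members were close to the background. The median share of those genes was 49.4%. In 26 members the highest isoform was of the retained-intron type (34.9% of the 6002 protein-coding genes at 10 TPM or more). In 17 it was protein-coding, in 3 of the nonsense-mediated decay type and in 2 a processed transcript. Retained-intron isoforms together exceeded protein-coding isoforms in 25 members (42.2% of the 6002 genes). A share of TPM gives a short isoform more weight than a share of reads does: by expected counts the median was 47.6%, and 16 of 38 shares were lower by over 1.5 times and 1 higher. Among these, Srsf1 had 7.999% of counts against 37.3% of TPM, Son 19.2% against 52.2% and Ptbp3 3.04% against 40.7%, and Srsf5 had 78.1% against 48.2%. The tables hold no unspliced precursor as a transcript of its own, so precursor reads that fall on a retained-intron isoform and reads of that isoform cannot be told apart.

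**Figure D2:**
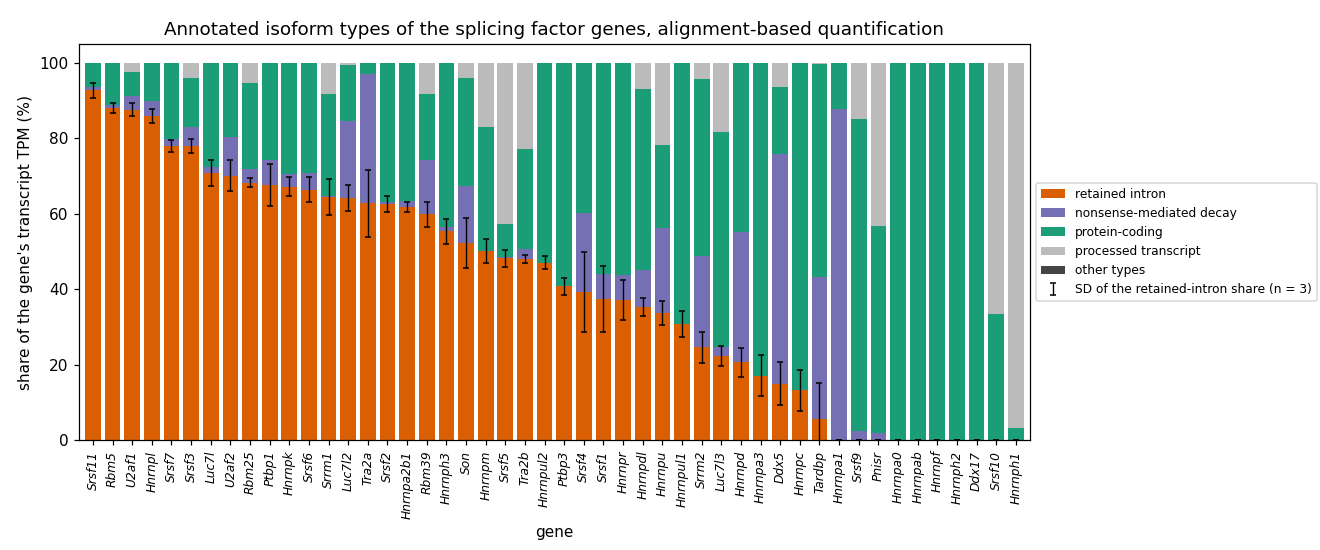
Share of each gene's transcript TPM, in percent, by annotated isoform type in the alignment-based quantification, as the mean of 3 libraries, with the SD of the retained-intron share as a black bar. The genes run from Srsf11, with 92.7% in retained-intron isoforms, to genes that have none annotated; Hnrnpa1 and Ddx5 hold 87.9% and 60.8% in nonsense-mediated decay isoforms.

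The highest retained-intron shares were those of SR proteins, regulators of the 3′ splice site and an hnRNP. Srsf11 had 93.9%, 93.7% and 90.4% in replicates 1, 2 and 3, spread over 11 such isoforms, of which Srsf11-208 (85.9 ± 4.34 TPM) and Srsf11-213 (65.3 ± 7.25 TPM) were the highest. Rbm5 had 89.3%, 88.2% and 86.5%, U2af1 87.6%, 89.3% and 85.9%, and Hnrnpl 86.3%, 87.5% and 83.8%. Srsf7 was at 78.0% ± 1.66 and Srsf3 at 77.9% ± 1.89 (SD, n = 3). In each of these 6 genes the libraries lay close together. The median SD over the 38 genes was 3.34 percentage points, and the largest was 10.5 points, for Srsf4. Of expected counts, Srsf11 had 92.9%, Rbm5 92.4%, U2af1 84.0%, Srsf3 84.1%, Hnrnpl 76.6% and Srsf7 72.1%.

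At the low end stood Tardbp, with 16.7% in replicate 1 and 0 in the other libraries. These zeros are estimates of how reads divide among isoforms, and read-based the share was 25.1%, 19.7% and 16.3% in replicates 1, 2 and 3. Hnrnpc followed at 13.1% ± 5.31, Ddx5 at 14.96% ± 5.81 and Hnrnpa3 at 17.1% ± 5.52. In the 10 genes with no retained-intron isoform in the annotation the share could only be 0. These are Srsf9, Srsf10, Hnrnpa0, Hnrnpa1, Hnrnpab, Hnrnpf, Hnrnph1, Hnrnph2, Ddx17 and Pnisr. For Hnrnph1, 3.08% of TPM was in protein-coding isoforms and the rest in processed transcripts, of which Hnrnph1-204, 4002 bases long, holds 2 whole introns of coding isoforms and was at 71.4 ± 5.19 TPM.

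The exon and intron structure was therefore used as a second measure, added after the shares were seen: the share of TPM in isoforms of any type that hold a whole intron of a coding isoform inside 1 exon. It also counts protein-coding isoforms with an exon that spans an intron of another coding isoform, so it is not a measure of unspliced RNA alone. Hnrnpab, with 100% of TPM in protein-coding isoforms, had 49.9%. The median over the 48 members was 30.8%, and 13 members were at 50% or more, against 12.2% of the 6002 genes, whose median was 0. Both sets include genes with no such isoform annotated, whose share could only be 0, so the gap may partly lie in the annotation. Srsf5 was highest at 98.1% ± 0.16, then Srsf2 at 96.3% ± 0.65, Srsf1 at 79.9% ± 2.22, Hnrnph1 at 76.4% ± 3.09, Ddx5 at 75.7% ± 4.14 and Hnrnpdl at 75.5% ± 2.15. In retained-intron isoforms Srsf2 had 62.6% and Srsf1 37.3%. The genes with the lowest retained-intron shares, Tardbp, Hnrnpc, Ddx5 and Hnrnpa3, had 48.8%, 57.0%, 75.7% and 39.6% by the whole-intron measure. Each was above the members' median of this measure. In Srsf11, U2af1 and Luc7l2 it was 0, since no isoform of theirs holds a whole intron of a coding isoform, whatever its type. Of 137 retained-intron isoforms of the members, 43 held a whole intron.

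The introns so held were shorter at the median than the other introns of these genes. There were 58 of them in 22 genes, with a median of 397 bases (quartiles 134 and 932), against 714 bases (quartiles 269 and 1678) for the 244 other introns of coding isoforms in the same 22 genes. Over 47 members the 574 other introns had a median of 1007 bases. This difference was not tested. Rbm5 had 11 of these introns, Srsf5 had 6, and Hnrnpa2b1, Hnrnpk and Ptbp1 had 5 each. Overlapping alternative introns were each counted, such as those of 822, 925, 934 and 1258 bases in Rbm5, which share an end. Separate stretches are therefore fewer than these counts. The shortest held intron, in Srsf5, was annotated at 21 bases. The median GC content of the held introns was 40.2%, against 50.6% for the 5281 introns held in the same way by 2217 protein-coding genes at 10 TPM or more. Those 5281 introns had a median length of 278 bases, so the members' held introns, at 397 bases, were the longer ones. The donor and acceptor bases were GT and AG in 57 of 58 (98.2% of the 5281), the exception being an 83-base intron of U2af2. The first 6 intron bases, read on the gene's strand, were GTAAGT in 8 of 58 (13.8%, against 10.1%) and GTGAGT in 7 of 58 (12.1%, against 14.1%).

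**Figure D3:**
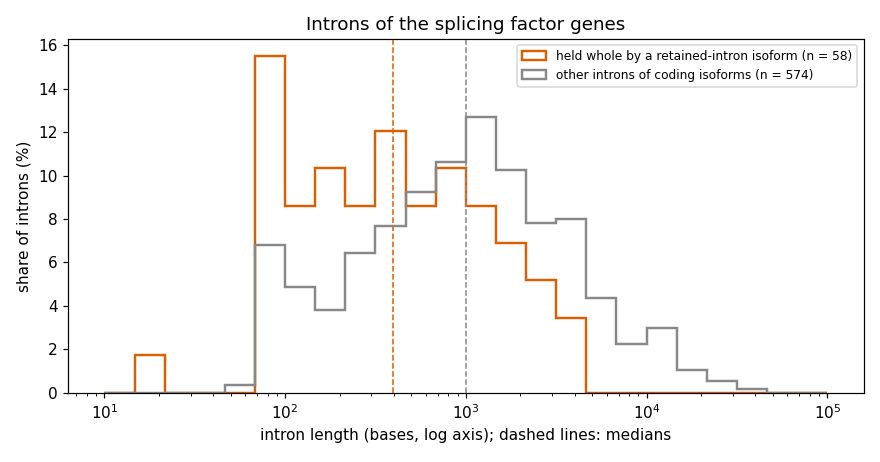
Lengths of introns of the splicing factor genes in bases on a log axis, as a share of introns in percent, for the 58 introns held whole by a retained-intron isoform of 22 genes and the 574 other introns of coding isoforms of 47 genes. The dashed lines mark the medians, 397 and 1007 bases. Overlapping alternative introns are each counted.

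The splice sites of introns held in the genes with the highest shares are printed below because they are the junctions that these isoforms leave unspliced. They were read from the GENCODE M21 transcript sequences on the gene's strand, 5′ to 3′, with coordinates in mm10. At the 5′ splice site the last 10 exon bases come before the first 20 intron bases, with the GT in capitals. At the 3′ splice site the last 20 intron bases come before the first 10 exon bases, with the AG in capitals. Rbm5-219, the highest Rbm5 isoform at 49.4 ± 2.70 TPM, holds an intron of 2783 bases (chr9:107756993-107759775, minus strand) and one of 472 bases (chr9:107759850-107760321).
Rbm5, 2783-base intron, 5′ site: agccaatcagGTtgcttcactcaccaagtc
Rbm5, 2783-base intron, 3′ site: attgcttcttttttttacAGaaaaaattgg
Rbm5, 472-base intron, 5′ site: aggaaaacagGTgagagcttgcttggttcc
Rbm5, 472-base intron, 3′ site: tatctgaatgctgtctctAGgtgtaagccg
Srsf7-207, which holds an intron of 874 bases (chr17:80204388-80205261, minus strand), was at 23.9, 23.0 and 25.9 TPM and made up 49.8% of the gene's TPM.
Srsf7, 874-base intron, 5′ site: gaagaagcagGTatttaattaatgaaggaa
Srsf7, 874-base intron, 3′ site: ttttctaacttaaaaaatAGgtcacgatct
Srsf3-204, at 38.1, 37.7 and 36.0 TPM and 36.0% of the gene's TPM, holds neighbouring introns of 2150 bases (chr17:29038625-29040774, plus strand) and 393 bases (chr17:29040814-29041206).
Srsf3, 2150-base intron, 5′ site: ctcggcgcagGTacttgagagagcaccttt
Srsf3, 2150-base intron, 3′ site: tttactgtttctgcttctAGatccccaaga
Srsf3, 393-base intron, 5′ site: gccggagcagGTaaatgttttggtgccctg
Srsf3, 393-base intron, 3′ site: gaatgtgctgtttgttttAGgtcactttct
In Hnrnpl, the highest isoform that holds a whole intron, Hnrnpl-203, was only 3.95% of the gene's TPM.

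Nonsense-mediated decay isoforms made up little of most members. Of the 36 genes that have one, the median share was 4.18%, and 5 were at 25% or more, against 10% of the 2164 protein-coding genes at 10 TPM or more that have one. The median share of those genes was 4.34%. Hnrnpa1 had 85.0%, 93.8% and 84.9% in replicates 1, 2 and 3, from Hnrnpa1-203 (45.8 ± 2.15 TPM) and Hnrnpa1-204 (39.8 ± 5.61 TPM). Ddx5 had 58.9%, 63.3% and 60.1%, nearly all of it in Ddx5-208, which at 591, 533 and 527 TPM was the highest of the members' 530 isoforms by mean. By the whole-intron measure Ddx5 had 75.7%, while its retained-intron, protein-coding and processed-transcript isoforms had 14.96%, 17.8% and 6.48% of its TPM. So the nonsense-mediated decay type in Ddx5 also includes isoforms that hold a whole intron. Precursor reads that fall on them and reads of these isoforms cannot be told apart. Tardbp had 39.2%, 34.0% and 39.4%, Hnrnpd 39.4%, 32.4% and 31.7%, and Tra2a 43.9%, 25.2% and 34.1%. Tra2a was the least steady of the 5, with its lowest share in replicate 2.

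The stop codons of the highest such isoform of Hnrnpa1, Ddx5, Hnrnpd and Tra2a are printed below because their place sets the isoform type. Each is given as the last 27 coding bases followed by the stop in capitals, on the gene's strand, with coordinates in mm10. In each, the stop lies upstream of the last exon junction of the isoform. Whether a stop is premature or also ends the frame of protein-coding isoforms was not tested.
Hnrnpa1-203, chr15:103244012-103244014: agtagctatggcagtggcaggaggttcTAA
Ddx5-208, chr11:106783954-106783956: accgatgtggcctccagagggctaggtTAG
Hnrnpd-208, chr5:99962545-99962547: ggacatcaaaatagctacaaaccatacTAA
Tra2a-202, chr6:49252965-49252967: aaaaaattgaacagaagattggtcagaTAG
The distance from the stop to the last junction was 90 bases in Hnrnpa1-203 and 137 bases in Hnrnpd-208, against 964 bases in Tra2a-202 and 1485 bases in Ddx5-208. The stop was in exon 2 of 9 in Tra2a-202 and in exon 11 of 12 in Ddx5-208. Hnrnpd-208, at 23.2 ± 6.37 TPM, ends its reading frame in exon 6 of 8. Tra2a-202 stood at 42.8, 18.6 and 31.1 TPM, beside 44.9, 43.4 and 46.3 TPM of the retained-intron isoform Tra2a-203. The range of Tra2a-202 was the wider one.

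Both quantifications gave like levels for most members. The read-based mean TPM was within 1.5 times the alignment-based one in 44 of 48 (68.7% of protein-coding genes at 10 TPM or more), and it was the higher one in 25. The widest gaps upward were Ptbp3 at 2.07 times, U2af1 at 1.74 times and Rbm39 at 1.72 times, with read-based means of 154, 95.03 and 1409 TPM. Downward they were Hnrnpa3 and Srsf2, both at 0.70 times, and Srsf6 at 0.72 times.

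**Figure D4:**
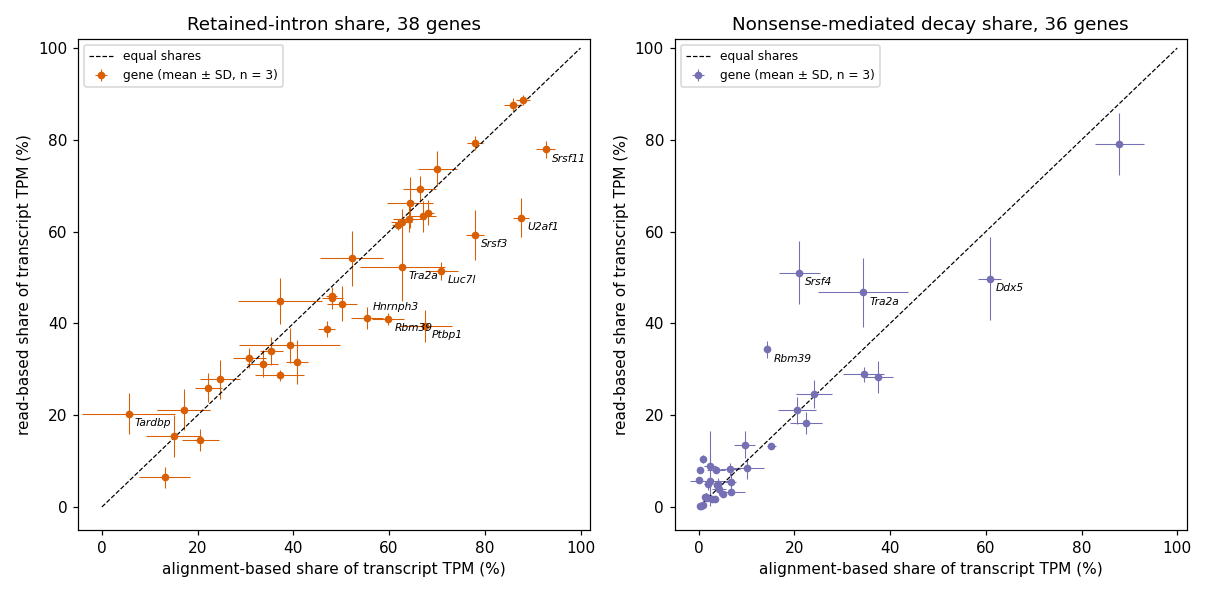
Retained-intron share of 38 genes (left) and nonsense-mediated decay share of 36 genes (right), in percent of transcript TPM, alignment-based on the horizontal and read-based on the vertical axis, as mean ± SD of 3 libraries. Named genes differ by over 10 percentage points; U2af1, Srsf3 and Ptbp1 lie below the dashed line of equal shares on the left, and Srsf4 and Rbm39 above it on the right.

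Isoform shares also differed between the quantifications. The read-based retained-intron share was within 10 percentage points in 29 of 38 genes and lower in 24, and its median was 45.2%. For Ptbp1 it was 39.4%, against 67.6% alignment-based, for U2af1 63.0% against 87.6%, and for Srsf3 59.2% against 77.9%. Rbm5 and Hnrnpl stayed at 88.7% and 87.7%. Of 36 nonsense-mediated decay shares, 32 were within 10 points; that of Srsf4 was 51.1% read-based against 21.03%, and that of Rbm39 was 34.3% against 14.4%. The 5 genes with the highest alignment-based share had read-based shares of 79.1% for Hnrnpa1, 49.7% for Ddx5, 46.8% for Tra2a, 28.9% for Hnrnpd and 28.3% for Tardbp.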

How the data were processed

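The members and lists were chosen with earlier results of these data known. Per the notes deposited with the libraries, the authors aligned to the mm10 transcriptome with the GENCODE M21 annotation. Aligner, quantifier, versions and strandedness: not given in the sources used here. The authors deposited expected counts and TPM for each gene and isoform (alignment-based), and estimated counts and TPM for each isoform (read-based). TPM covers every row of a table, and the authors' isoform TPM is scaled by isoform length, so a short fragment isoform weighs more in a TPM share than in a count share. Overlapping and antisense genes may share reads. Rows without a gene (1.31%, 0.476% and 0.24% of expected counts in replicates 1, 2 and 3) were left out of the fit.

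Levels and shares are means ± SD of 3 libraries. Expected counts were rounded for edgeR 4.0.16 in R 4.3.3 (filterByExpr, TMM, intercept only, glmQLFit at its defaults); each gene's quasi-dispersion was set against the trend by an upper-tail F test, adjusted over all genes by Benjamini-Hochberg. The procedure was tested on simulated data in which every gene had the same dispersion, so that test does not show what the fit can detect in these libraries. p-values measure only the spread between these libraries. Isoform types and gene names came from the deposited identifiers, and sequences and structures from the GENCODE M21 transcript sequences and annotation. Summaries were made in Python 3.11.15 with pandas 2.3.3. The robust forms of the fit and the whole-intron measure were added after results were seen, as the closing section says. Text named the 3 highest and the lowest gene of each class of 5 or more and all genes of smaller classes, the 6 highest and 4 lowest retained-intron shares, the 5 highest nonsense-mediated decay shares, the 5 widest and 3 narrowest SDs of log2(TPM + 1), the 3 widest gaps between quantifications each way, 12 pairs, and the highest 2 and the lowest gene of each other list. A further sequence is not reported here. Other genes, isoforms and the sequences printed were chosen after their values were seen.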

Additional observations from a re-analysis of the deposited data

How the results depend on the processing

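No member was called more variable than the trend under any of the 10 alternatives run with edgeR, while the count over all genes moved: 0 at the defaults and with RLE size factors, a mean of at least 50 counts or nuclear protein-coding genes alone, 49 of 25532 with no filter and 10 of 24320 with read-based counts. Robust moderation was tried after the default result was seen. With the highest prior degrees of freedom it called 24 genes (862 unadjusted), the count of an earlier analysis of these data; with those of each gene it called 0 (432 unadjusted). Leaving out 1 library gave 0 to 73 genes; the count was 8 without replicate 1 and 73 without replicate 3.

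The members' median level was 119.6 TPM, 133 TPM read-based and 281 TPM when TPM was rescaled to protein-coding and lncRNA genes of the nuclear genome, which raises every gene; 42 members then reached 100 TPM, against 26. The median retained-intron share of 53.7% was 45.2% read-based, 47.6% of expected counts, 62.0% of retained-intron, nonsense-mediated decay and protein-coding isoforms alone, and 31.1% by whole introns held, by which 11 genes reached 50%, against 21. It ran from 52.9% to 54.7% with 1 library left out. The median nonsense-mediated decay share of 4.18% was 6.997% read-based and 2.65% of expected counts, by which 2 genes reached 25%, against 5. Of single members, 34 of 48 levels, 20 of 38 retained-intron shares and 26 of 36 nonsense-mediated decay shares moved by more than their SD read-based, as did 33 and 20 of these shares taken of expected counts; leaving 1 of 3 libraries out cannot move a mean that far, so it says nothing of single members. The median of all protein-coding genes was 10.2 TPM over those at 0.5 TPM or more, against 0.913 TPM. No paired analysis was possible because there is 1 group. Depth limits Hnrnpa0 most, at 113 expected counts in replicate 1.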
